A study of Mus musculus with 12 samples.

Results

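The genes described here are 10 loci of the contractile and myofibroblast program, namely Acta2, Tagln, Cnn1, Myh11, Myl9, Tpm1, Tpm2, Myocd, Mrtfa and Srf, out of 21951 protein-coding genes of the GENCODE M21 annotation. Each locus was its gene body plus 50000 bp upstream, in the mm10 genome, and a peak belonged to the locus when its summit lay inside. All 10 loci held at least 1 peak, and the loci held 403 of the 658361 peaks listed in the 12 libraries. The study measured open chromatin by ATAC-seq, in which a transposase cuts accessible DNA, in cultured fibroblasts taken from lower abdominal muscle of Aromhum mice, a strain with a human aromatase transgene. The labels call the cells skeletal muscle fibroblasts, and the mice's age was not given in the sources used here. Cells were passaged once, deprived of serum overnight, and harvested after 1 hour with 10 nM estradiol (E2), with 10 nM E2 plus 100 nM of the estrogen receptor antagonist fulvestrant, with 100 nM fulvestrant, or with vehicle (ethanol and DMSO), in 3 libraries per treatment. Fulvestrant or DMSO was given 3 hours before E2 or ethanol. All 4 groups carried the same transgene, so no group lacked local aromatase, and the labels did not say whether the 3 libraries of a treatment came from separate mice or cultures. The p-values given below therefore measure only the spread between these libraries, which may be technical.

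Fibroblasts that turn into contractile myofibroblasts assemble actin stress fibres, and the genes of these fibres are switched on by the transcription factor SRF. SRF binds a short AT-rich element, the CArG box, together with partners of the myocardin family. Mrtfa encodes the partner that moves into the nucleus when actin polymerises, and Myocd encodes the founding member, best known from smooth and cardiac muscle. Acta2 encodes smooth muscle alpha-actin, the usual marker of myofibroblasts. Tagln and Cnn1 encode the actin-binding proteins transgelin and calponin, Myh11 and Myl9 the smooth muscle myosin heavy chain and a regulatory light chain, and Tpm1 and Tpm2 tropomyosins that lie along actin filaments.

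Peaks had been called in each library separately at p of 0.01, with no limit on q, and the number listed ranged from 30062 to 110724 per library (median 46548). Of these, 7.35% to 46.4% had q of 0.05 or less. The read depth was not in the peak lists. In 5 libraries, vehicle 1, vehicle 3, E2 1, E2 plus fulvestrant 1 and fulvestrant 1, 53.8% to 62.8% of all protein-coding promoters had a listed peak, against 17.3% to 44.3% in the other 7. Replicate number 1 stood apart in each treatment: its libraries listed 22 to 36 peaks on chromosome Y, and those of numbers 2 and 3 listed 854 to 1148. For some members and comparisons, differences are therefore also given within number 1 and within numbers 2 and 3. Of the markers of fibroblasts, 6 of 8 had a promoter peak in 6 or more libraries, against 45.2% of all protein-coding genes. A promoter peak with q of 0.05 or less in some library was found for 8 of 8, and for 14255 of the 21951 protein-coding genes. The same counts of promoters in 6 or more libraries were 2 of 7 for skeletal muscle (Pax7 and Myod1 were listed in none), 2 of 6 for smooth muscle and pericytes, 0 of 4 for endothelial and 0 of 4 for immune genes. With q of 0.05 or less in some library, the counts of these lists were 3 of 7, 2 of 6, 1 of 4 and 1 of 4.

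Within the members' own promoters and gene bodies, the highest fold enrichment lay at an internal start of Tpm1 (12.5), at the Mrtfa promoter (11.9) and in Srf (7.41). Upstream, regions at the starts of other genes reached 9.95 in the Tpm2 window, 8.33 in the Myh11 window, 7.83 in the Tagln window and 7.37 in the Cnn1 window. When overlapping peaks of the 12 libraries were merged, the loci held 258 regions, of which 197 (76.4%, against 77.7% genome-wide) came from a single library. A region was called recurrent when at least 6 of 12 libraries listed it. There were 8 such regions (3.10%, against 2.57% of 435284 regions genome-wide), and no region was listed in all 12. Of the 8, 4 lay in a member's own promoter or gene body, at Srf (2), Mrtfa and Tpm1, and the other 4 had their most significant summit within 53 bp of a start of another gene in the upstream window: Pafah1b2 for Tagln, Ecsit for Cnn1, Fopnl for Myh11 and Creb3 for Tpm2. With 50% reciprocal overlap 6 regions met the rule.

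Srf, which encodes the factor that binds the CArG box, lies on the minus strand of chr17:46548329-46556175. A region over its promoter (chr17:46556000-46556684) was listed in 6 libraries. Its fold enrichment, the ratio of reads at the summit to the local background as the peak caller reports it, was 4.73 in vehicle 1, 6.78 in vehicle 3, 5.43 in E2 1, 5.64 in E2 plus fulvestrant 1, 6.02 in fulvestrant 1 and 5.80 in fulvestrant 2. The 5 libraries with high promoter signal were all among them, together with fulvestrant 2, and each treatment was represented. A second region, in the gene body (chr17:46552787-46553486), was listed in 7 libraries with its most significant summit 3189 bp downstream of the gene start, outside any Srf exon, and -1193 bp from an internal transcript start. Its fold enrichment was 6.51 in vehicle 1, 7.41 in vehicle 3, 6.78 in E2 1, 6.28 in E2 plus fulvestrant 1, 3.49 in E2 plus fulvestrant 3, 7.39 in fulvestrant 1 and 4.93 in fulvestrant 2. This intronic region was higher than the promoter region in 5 of the 6 libraries that listed both, the exception being fulvestrant 2. The promoter stretch before the first exon (chr17:46556176-46556412) and the 300 bp around the intronic summit (chr17:46552836-46553135), both on the minus strand, are shown because the first carries 2 CArG boxes, in capitals, and the second none.
Srf promoter: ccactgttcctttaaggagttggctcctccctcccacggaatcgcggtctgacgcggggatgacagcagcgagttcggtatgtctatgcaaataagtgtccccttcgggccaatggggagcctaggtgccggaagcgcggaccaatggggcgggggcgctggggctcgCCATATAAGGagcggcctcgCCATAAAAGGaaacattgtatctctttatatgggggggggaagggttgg
Srf intron: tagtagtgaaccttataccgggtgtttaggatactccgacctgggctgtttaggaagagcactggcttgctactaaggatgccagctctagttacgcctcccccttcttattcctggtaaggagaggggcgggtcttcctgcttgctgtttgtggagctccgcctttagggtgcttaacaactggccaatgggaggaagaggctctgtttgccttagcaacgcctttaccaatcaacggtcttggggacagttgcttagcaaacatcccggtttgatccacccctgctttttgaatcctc

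The CArG boxes, whose core is CC, 6 bases of A or T and GG, began at positions -82 and -62 from the RefSeq start of Srf and at -42 and -22 from the vehicle 3 summit. Over all 32851 RefSeq promoter sequences (GRCm38.p6; 250 bases before to 50 after the start), 1.63% held a CArG box on either strand. The same share was 1.10% of 11044 summit windows of 300 bp from regions recurrent genome-wide. Of the 10 genes, 7 had an entry among these promoters (Mrtfa had 2), and Tagln, Myh11 and Myocd had none. Srf and Myl9 held a CArG box of this exact form, and the windows of Acta2, Cnn1, Tpm1, Tpm2 and Mrtfa did not. Stretches with a G or C among the 6 bases were not counted, such as ccctatatgg and ccttgtttgg in the Acta2 window. Their absence from the count does not show that a promoter lacks sites for SRF. The TEAD element CATTCC occurred in the windows of Tpm1 and Acta2 (14.7% of all promoters held it). Neither the AP-1 element TGANTCA (7.81% of promoters) nor the full estrogen response element, GGTCA and TGACC with 3 bases between (0.0700%), occurred in any of the 8 entries. These searches covered both strands and found letters only, not binding.

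Myl9, on the plus strand of chr2:156775420-156781658, was the other gene with a CArG box of this exact form in its promoter entry, at position -161 from its RefSeq start. The stretch before its first exon (chr2:156775214-156775419) is shown with the box in capitals.
Myl9 promoter: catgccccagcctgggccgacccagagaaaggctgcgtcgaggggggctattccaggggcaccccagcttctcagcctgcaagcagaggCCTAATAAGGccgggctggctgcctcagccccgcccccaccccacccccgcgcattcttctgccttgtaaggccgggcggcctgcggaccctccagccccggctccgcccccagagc
A region over this stretch (chr2:156775021-156775499) was listed in the same 5 high-signal libraries. Its fold enrichment was 4.35 in vehicle 1, 5.65 in vehicle 3, 3.15 in E2 1, 4.63 in E2 plus fulvestrant 1 and 5.34 in fulvestrant 1. The E2 library was the lowest and the only one of the 5 with q above 0.05. In vehicle 2 the nearest peak lay 706 bp inside the gene.

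Tpm1 (minus strand, chr9:67022590-67049406) had its strongest peak not at the 5-prime start but at an internal start about 5 kb into the gene, from which shorter tropomyosin transcripts begin. This region (chr9:67043496-67044253) was listed in 6 libraries, with the most significant summit 5 bp from an annotated transcript start and inside an exon. Its fold enrichment was 8.26 in vehicle 1, 12.5 in vehicle 3, 11.9 in E2 1, 11.5 in E2 plus fulvestrant 1, 11.5 in fulvestrant 1 and 4 in fulvestrant 2. In the first 5 of these libraries it stood above 90.4% or more of all listed promoters of the same library. The 5-prime start had a weaker region (chr9:67048858-67049710) in the same 5 libraries, at 3.65 in vehicle 1, 5.505 in vehicle 3, 4.04 in E2 1, 4.97 in E2 plus fulvestrant 1 and 4.64 in fulvestrant 1. The internal start was the higher of the pair in all 5. The exon-free bases just upstream of the internal start (chr9:67043963-67044253, minus strand) are shown as the upstream flank of this region, with no CArG box among them. The summits of vehicle 3, E2 1, fulvestrant 1 and fulvestrant 2 lay downstream of these bases.
Tpm1 internal start: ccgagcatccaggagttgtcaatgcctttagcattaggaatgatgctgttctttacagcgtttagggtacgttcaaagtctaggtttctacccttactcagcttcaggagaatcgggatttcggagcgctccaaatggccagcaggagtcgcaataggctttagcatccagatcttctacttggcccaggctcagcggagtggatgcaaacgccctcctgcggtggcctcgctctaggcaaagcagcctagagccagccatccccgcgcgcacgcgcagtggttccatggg

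Mrtfa (minus strand, chr15:81012281-81190757) had the most frequently listed promoter region (chr15:81190258-81191277), found in 8 libraries. Its fold enrichment was 7.08 in vehicle 1, 11.01 in vehicle 3, 10.2 in E2 1, 11.9 in E2 plus fulvestrant 1, 3.24 in E2 plus fulvestrant 3, 11.1 in fulvestrant 1, 6.15 in fulvestrant 2 and 3.31 in fulvestrant 3. Vehicle 2, E2 2, E2 3 and E2 plus fulvestrant 2 did not list it. A start of the transcript 4930483J18Rik lies 62 bp from the most significant summit, so the signal cannot be assigned to Mrtfa alone. The part of the region upstream of the first exons (chr15:81191006-81191277, minus strand) is shown for comparison with Srf and Myl9 and held no CArG box. Of the 8 summits, only that of E2 plus fulvestrant 3 lay in it.
Mrtfa promoter: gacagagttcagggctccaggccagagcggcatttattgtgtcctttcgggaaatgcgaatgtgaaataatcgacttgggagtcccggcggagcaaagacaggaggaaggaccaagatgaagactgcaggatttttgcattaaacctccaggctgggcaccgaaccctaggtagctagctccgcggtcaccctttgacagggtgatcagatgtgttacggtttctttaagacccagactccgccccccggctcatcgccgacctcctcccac
Inside the long Mrtfa gene, regions 53273 and 163012 bp from the gene start were each listed in 5 libraries, with fold enrichment of 6.94 and 4.29 at the most significant summit.

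**Figure D1:**
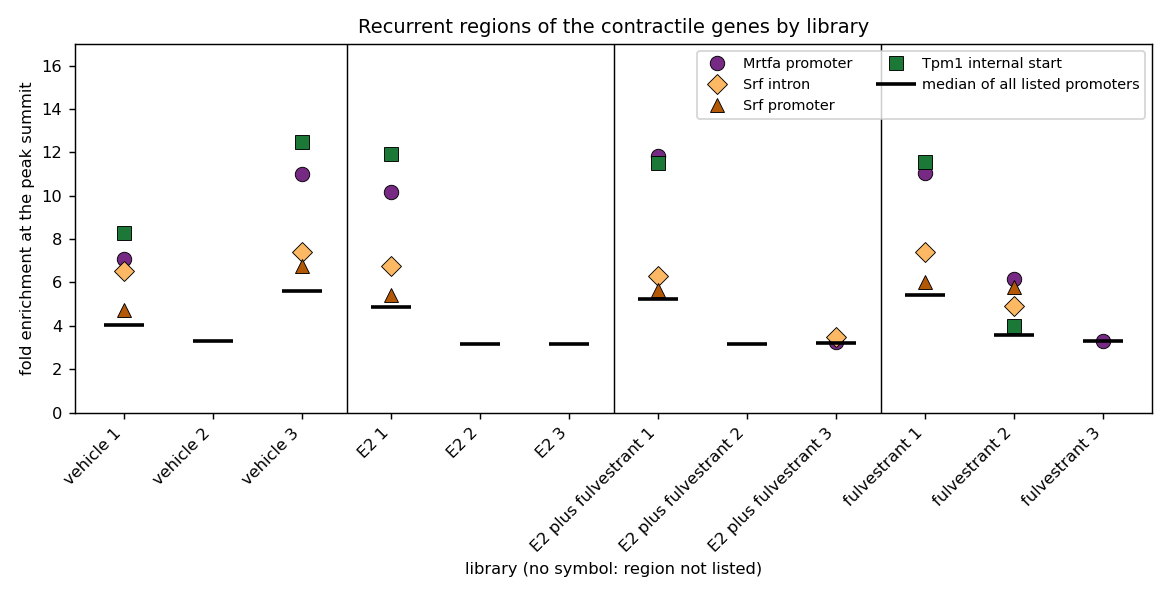
Fold enrichment at the summit (vertical axis) of the 4 recurrent regions that belong to Srf, Mrtfa and Tpm1, in each of the 12 libraries (horizontal axis), with black bars for the median of all listed promoters of that library. All 4 regions are present in vehicle 1, vehicle 3 and the number 1 library of every other treatment, and vehicle 2, E2 2, E2 3 and E2 plus fulvestrant 2 have none.

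Within replicate number 1, the libraries of the 4 treatments all listed these 4 regions and could be set side by side, with no test since each treatment is then 1 library. Vehicle 1 was the lowest of the 4 at Tpm1, Mrtfa and the Srf promoter. It was also the library with the lowest median over all listed promoters, 4.02, against 4.88 in E2 1, 5.22 in E2 plus fulvestrant 1 and 5.42 in fulvestrant 1. The part of this difference in library signal in the values at the 4 regions was not tested. In bulk cells, fewer cells with an open site and a less open site in each cell cannot be told apart.

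**Figure D2:**
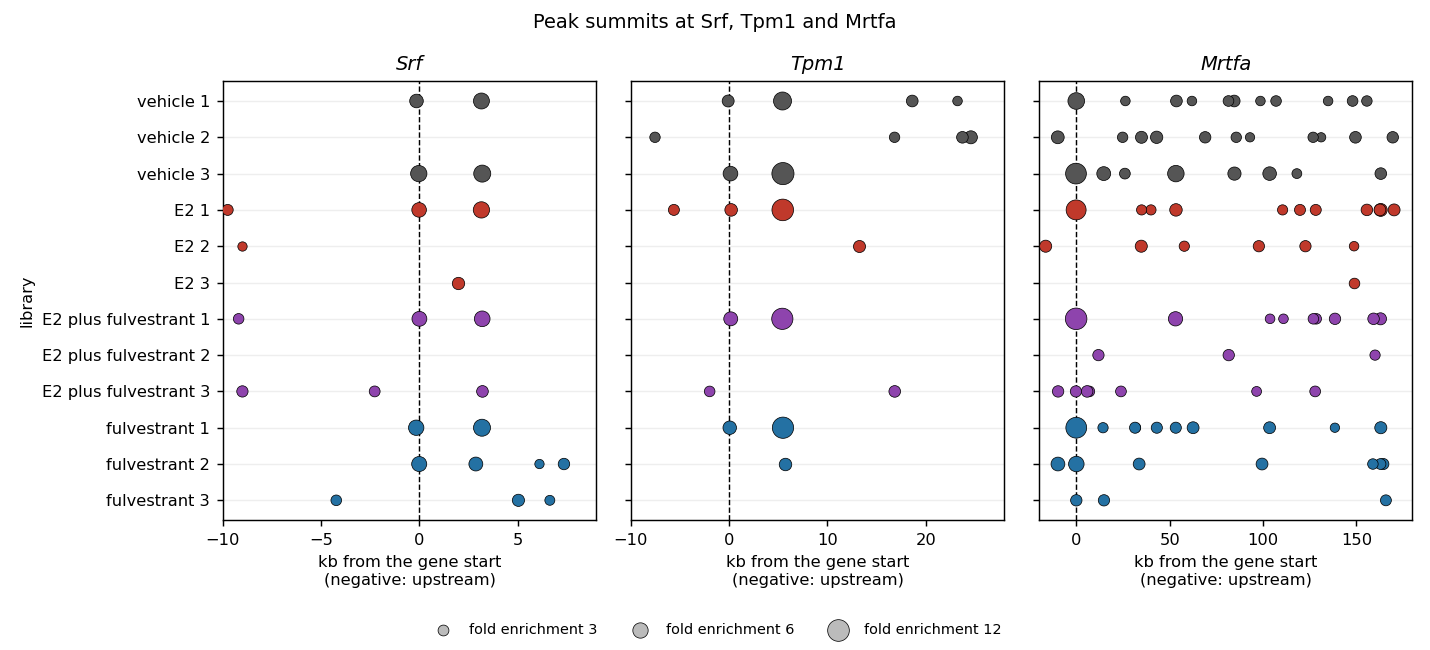
Position of every peak summit near Srf, Tpm1 and Mrtfa in kb from the gene start (horizontal axes, dashed line at the start) for each library (rows, coloured by treatment), with the point area proportional to fold enrichment. Large points line up at the Srf promoter and intron, at the internal start of Tpm1 and at the Mrtfa promoter in the same libraries, and most other summits occur in 1 library.

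Across whole loci, the contractile genes and their regulators listed 14 to 60 peaks per library. Per 100 kb the median locus held 4.04 peaks a library, against 3.08 over all protein-coding loci. Of the 403 peaks, 144 had q of 0.05 or less. By position, 17.4% lay within 3000 bp of a start of the member alone, 6.20% within 3000 bp of both a member's start and another gene's, 21.6% in another gene's promoter window, 28.8% elsewhere in the gene body and 26.1% elsewhere upstream. A whole pileup, the number of extended read ends over the summit, could be recovered for 403 of 403 peaks from fold enrichment and p. Its lowest value was 3, and at the internal start of Tpm1 it reached 51.

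**Figure D3:**
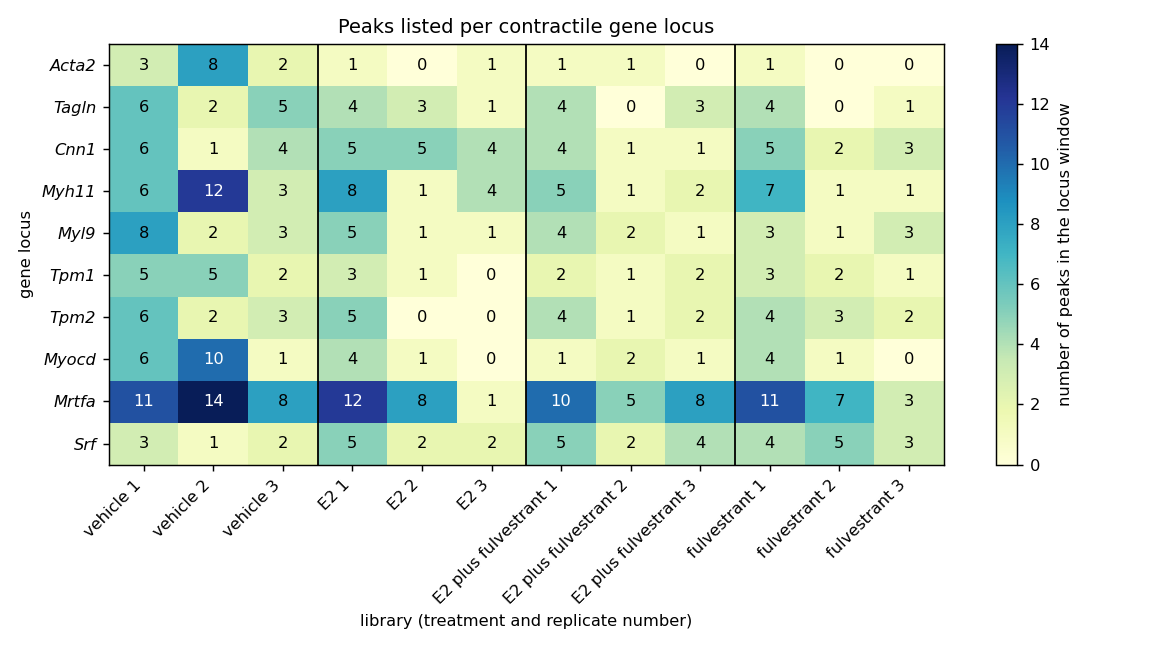
Number of peaks in each locus window (rows) in each library (columns, grouped by treatment). Acta2 has 2 to 8 peaks in the vehicle libraries and 0 or 1 in the other 9, and the other 9 genes overlap or share a value between treatments.

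Acta2 (minus strand, chr19:34241090-34255590) was the only member whose number of peaks did not overlap between treatments. Its window held 3, 8 and 2 peaks in vehicle 1, 2 and 3, 1, 0 and 1 in the E2 libraries, 1, 1 and 0 with E2 plus fulvestrant, and 1, 0 and 0 with fulvestrant. Every vehicle library was higher than every other library, as at 101 of 21643 loci (0.467%). The mean was 4.33 ± 3.21 (SD, n = 3) with vehicle, 0.667 ± 0.577 with E2, 0.667 ± 0.577 with E2 plus fulvestrant and 0.333 ± 0.577 with fulvestrant. The 3 comparisons share the vehicle libraries and are not independent. A member was counted as called when the 2 groups of 3 did not overlap, because the exact two-sided permutation test of 3 against 3 cannot go below 0.1. For Acta2 the exact p was 0.1 in each comparison with vehicle and 1 after Benjamini-Hochberg adjustment over 21643 loci. Over all those loci, 3.24% were lower than vehicle without overlap with E2, 4.59% with fulvestrant and 5.63% with E2 plus fulvestrant, and 1 of 10 members was. Marker genes of other cells also had fewer peaks than vehicle without overlap: with E2, 1 of 6 smooth muscle and pericyte genes (Cspg4) and 1 of 4 immune genes (Csf1r), with fulvestrant Cspg4 and 1 of 4 endothelial genes (Kdr), and with E2 plus fulvestrant Rgs5 and 2 of 4 endothelial genes (Kdr and Tek). Rgs5 had 1, 3 and 1 peaks with vehicle and 0 in each library with E2 plus fulvestrant. In these 3 comparisons 0 of 8 fibroblast markers, 0 of 7 skeletal muscle markers and 0 of 6 genes not expected in these cells were called. Per 10000 peaks of the library, the numbers called higher and lower changed. For smooth muscle and pericytes they were 1 and 0 with E2, and 1 and 1 with each other treatment. In the same order, they were 0 and 0, 1 and 2, and 0 and 2 for endothelial genes. For immune genes they were 0 and 0, 1 and 0, and 0 and 0. The part of other cells in the Acta2 values was not tested.

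The Acta2 peaks of the vehicle libraries were mostly weak and lay at different places. Vehicle 1 and vehicle 3 shared a summit 4 and 7 bp downstream of the RefSeq start of Acta2, with fold enrichment of 2.92 and 4.66 and a pileup of 4 and 10. Only the peak of vehicle 3 had q of 0.05 or less there. Vehicle 2 had no peak at this start, and its 8 peaks, of fold enrichment 2.22 to 3.89, were spread over the window. The region at the start of the neighbouring Fas gene, about 35 kb upstream of Acta2, made up 1 of the peaks of vehicle 1 and vehicle 3 and the single peak of E2 1, E2 plus fulvestrant 1 and fulvestrant 1. Taking number 1 alone, E2 minus vehicle came to -2 peaks, and in numbers 2 and 3 it averaged -4.5. Among peaks with q of 0.05 or less or with fold enrichment of at least 5, Acta2 was no longer called in any comparison. It was also not called with E2 when the window reached 25000 or 100000 bp upstream, nor with E2 plus fulvestrant for 25000 bp or the gene body alone. The E2 effect without fulvestrant minus that with fulvestrant was -4 peaks (exact permutation test within each arm, p = 0.06, adjusted p = 1).

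None of the 10 genes was called between E2 and E2 plus fulvestrant, which set E2 against E2 with its receptor blocked, where 2.13% of all loci were. The median difference over the members was 0 peaks, against 0.333 over all loci. Cnn1 came nearest, with 5, 5 and 4 peaks with E2 and 4, 1 and 1 with E2 plus fulvestrant. The smallest E2 value equalled the largest value with E2 plus fulvestrant, and the exact two-sided permutation p was 0.2 (adjusted p = 1). In number 1 the difference was 1 peak, and over numbers 2 and 3 it averaged 3.5.

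The other contractile genes overlapped in each of the 4 comparisons. Tagln had 6, 2 and 5 peaks with vehicle, 4, 3 and 1 with E2, 4, 0 and 3 with E2 plus fulvestrant and 4, 0 and 1 with fulvestrant. Myh11 had 6, 12 and 3, then 8, 1 and 4, then 5, 1 and 2, then 7, 1 and 1, in the same order of treatments. In both genes the number 1 library led each of the treated groups. Myl9 ranged from 1 to 8 peaks, Tpm1 from 0 to 5 and Tpm2 from 0 to 6, each with its highest value in vehicle 1, which for Tpm1 was shared with vehicle 2.

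Among the regulators, Myocd had 6, 10 and 1 peaks with vehicle, 4, 1 and 0 with E2, 1, 2 and 1 with E2 plus fulvestrant and 4, 1 and 0 with fulvestrant. Mrtfa, whose window of 228 kb is the longest of the 10, ranged from 1 peak in E2 3 to 14 in vehicle 2. Srf went the other way, with 3, 1 and 2 peaks with vehicle, 5, 2 and 2 with E2, 5, 2 and 4 with E2 plus fulvestrant and 4, 5 and 3 with fulvestrant. The Srf groups overlapped or touched in every comparison. E2 minus vehicle differed in sign between number 1 and numbers 2 and 3 for Myh11, Mrtfa and Cnn1. It was 2 and -5 peaks for Myh11, 1 and -6.5 for Mrtfa, and -1 and 2 for Cnn1. For the other members its sign was the same in both. Fulvestrant minus vehicle was 1 and -6.5 peaks for Myh11. With E2, fulvestrant, and E2 plus fulvestrant the mean was lower than with vehicle in 8, 9 and 9 of the 10 loci. The median difference was -2.33, -2.33 and -2.17 peaks, against -1 over all loci in each comparison. Per 10000 peaks of the library, 8, 6 and 8 of the 10 were lower. The median differences were then -0.283, -0.0595 and -0.153, against -0.0301, -0.00276 and -0.000234 over all loci. The share of all loci with a lower mean was not counted.

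The libraries also differed in the number of peaks listed in all. Vehicle 1, 2 and 3 listed 77390, 110724 and 44358, and the E2 libraries 78822, 48738 and 31697. Those with E2 plus fulvestrant listed 60924, 36350 and 33536, and those with fulvestrant 73801, 31959 and 30062, so the treatments overlapped. Per 10000 peaks of the library, Acta2 remained lower than vehicle in all 3 comparisons, Tpm1 was in addition lower with E2, and Srf was higher with fulvestrant and with E2 plus fulvestrant. That made 2 of 10 members called in each comparison with vehicle, beside 7.39% of all loci with E2, 8.22% with fulvestrant and 8.93% with E2 plus fulvestrant. For E2 against E2 plus fulvestrant it was 0 of 10, beside 8.57%. On this scale Srf had 0.310 ± 0.193 peaks per 10000 with vehicle and 1.03 ± 0.512 with fulvestrant (SD, n = 3; exact permutation p = 0.1, adjusted p = 1).

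Promoter peaks, with a summit within 3000 bp of any transcript start, were listed for the members more often with vehicle than with the other treatments. With vehicle, 26 of 30 pairs of member and library had a listed promoter (86.7%, against 51.9% over all protein-coding genes). With E2 it was 6 of 30 (20%, against 35.1%), with E2 plus fulvestrant 11 of 30 (36.7%, against 34.2%) and with fulvestrant 14 of 30 (46.7%, against 37.3%). By library, vehicle 1, 2 and 3 listed 10, 7 and 9 of the 10 promoters, the E2 libraries 5, 0 and 1, the libraries with E2 plus fulvestrant 6, 0 and 5, and those with fulvestrant 7, 4 and 3. Over all genes the shares were 57.6%, 44.3% and 53.8% with vehicle and 62.6%, 25.5% and 17.3% with E2. They were 60.3%, 20.2% and 22.3% with E2 plus fulvestrant, and 62.8%, 29.6% and 19.6% with fulvestrant. With q of 0.05 or less, vehicle 1, 2 and 3 listed 4, 3 and 7 member promoters, the E2 libraries 4, 0 and 0, the libraries with E2 plus fulvestrant 6, 0 and 0, and those with fulvestrant 6, 3 and 1. At this q the shares over all genes were 32.2%, 9.44% and 43.3% with vehicle and 48.8%, 1.92% and 1.33% with E2. They were 47.6%, 1.29% and 2.04% with E2 plus fulvestrant, and 50.6%, 13.6% and 3.27% with fulvestrant. A promoter that is not listed is not shown to be closed. The median member was listed in 6 of 12 libraries, against 5 over all genes, and 6 of 10 members were listed in 6 or more, as were 45.2% of all genes.

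**Figure D4:**
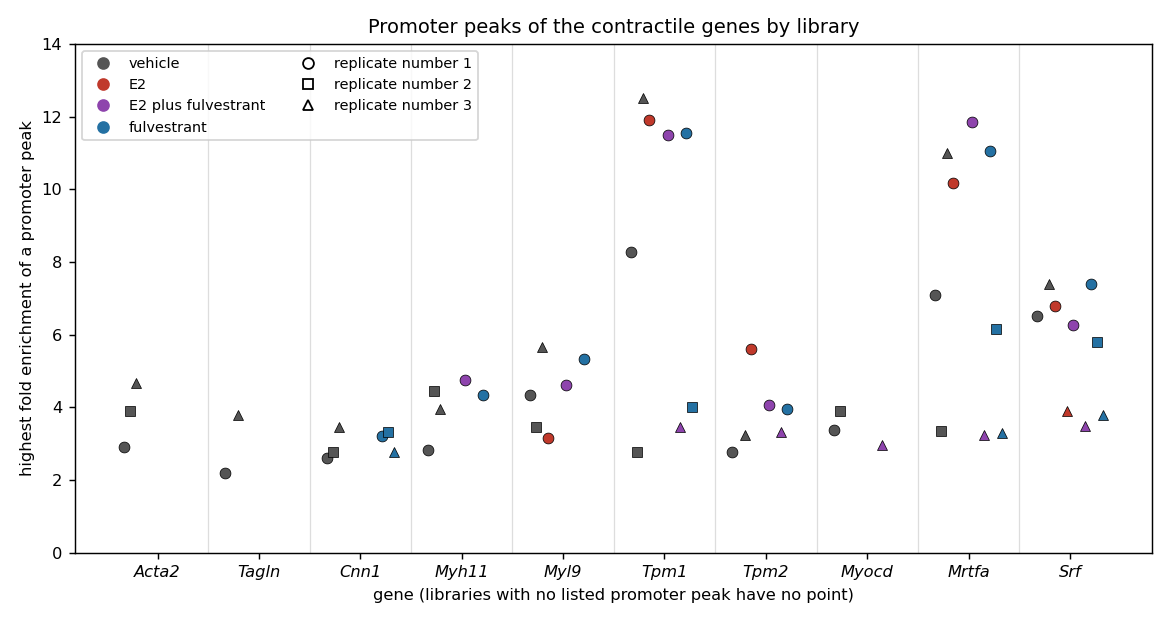
Highest fold enrichment of a promoter peak (vertical axis) for each gene (horizontal axis), 1 point per library that listed one, coloured by treatment and shaped by replicate number. Tpm1, Mrtfa and Srf reach 12.5, 11.9 and 7.41 (for Srf in the intronic region, near an internal start), while Acta2, Tagln, Cnn1, Myh11 and Myocd stay below 5.

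Of the 10 promoters, 3 were listed in every vehicle library and no E2 library, namely those of Acta2, Cnn1 and Myh11 (0.686% of all genes with a promoter peak in the 6 libraries). With E2 plus fulvestrant there were 2, Acta2 and Cnn1 (0.823% of genes), and with fulvestrant 1, Acta2 (0.7%). Between E2 and E2 plus fulvestrant there was none (0.612% of genes in either direction). Acta2 was listed in the 3 vehicle libraries and 0 of the other 9, as were 20 of 19368 genes (0.103%). With q of 0.05 or less, or within 1000 bp of a start, none of these genes was called in any comparison. At this q few genes were called at all. Against vehicle the shares in either direction were 0.0943% with E2, 0.124% with fulvestrant and 0.137% with E2 plus fulvestrant. Between E2 and E2 plus fulvestrant the share was 0.00814%.

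Cnn1 (plus strand, chr9:22099216-22109630) was listed in all 3 vehicle and all 3 fulvestrant libraries and in 0 of the 6 libraries that received E2, a pattern noticed after its values were seen and shared by 2 of 19368 genes (0.0103%). None of these Cnn1 peaks had q of 0.05 or less, and fold enrichment was 2.60 to 3.47. The 3 fulvestrant libraries had a summit 4255 to 4600 bp inside the gene, the most significant of them -852 bp from an internal transcript start, and the 3 vehicle libraries had theirs at 3 other places. A region about 3 kb upstream of the gene start (chr9:22096095-22096435) was listed in vehicle 3, E2 1 and E2 plus fulvestrant 1. Its summit lay at -2925 bp in vehicle 3, inside the 3000 bp limit, and at -3005 and -3033 bp in E2 1 and E2 plus fulvestrant 1, just outside it. For those 2 libraries, not being listed turned on the limit.

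Myh11 (minus strand, chr16:14194535-14291372) had a peak between -2068 and -1492 bp from the gene start in all 3 vehicle libraries, E2 plus fulvestrant 1 and fulvestrant 1. Fold enrichment was 2.84, 4.44 and 3.97 in vehicle 1, 2 and 3, 4.75 in E2 plus fulvestrant 1 and 4.35 in fulvestrant 1. The region they formed (chr16:14292820-14293353) took in 4 of them, since the vehicle 3 peak lay beside it. In E2 1 the nearest upstream peak lay at -3741 bp, with fold enrichment of 3.99, where vehicle 2 also had one. Tagln had a promoter peak only in vehicle 1 (fold enrichment 2.20) and vehicle 3 (3.79), and Myocd only in vehicle 1, vehicle 2 and E2 plus fulvestrant 3, at internal starts or upstream and not above 3.89. The Tpm2 promoter region (chr4:43523074-43523687) was listed in E2 1, E2 plus fulvestrant 1 and fulvestrant 1 at 5.60, 4 and 3.96, and in no vehicle library. Outside this region, vehicle 1 and vehicle 3 listed peaks within 3000 bp of a Tpm2 transcript start, at up to 2.78 and 3.25.

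**Figure D5:**
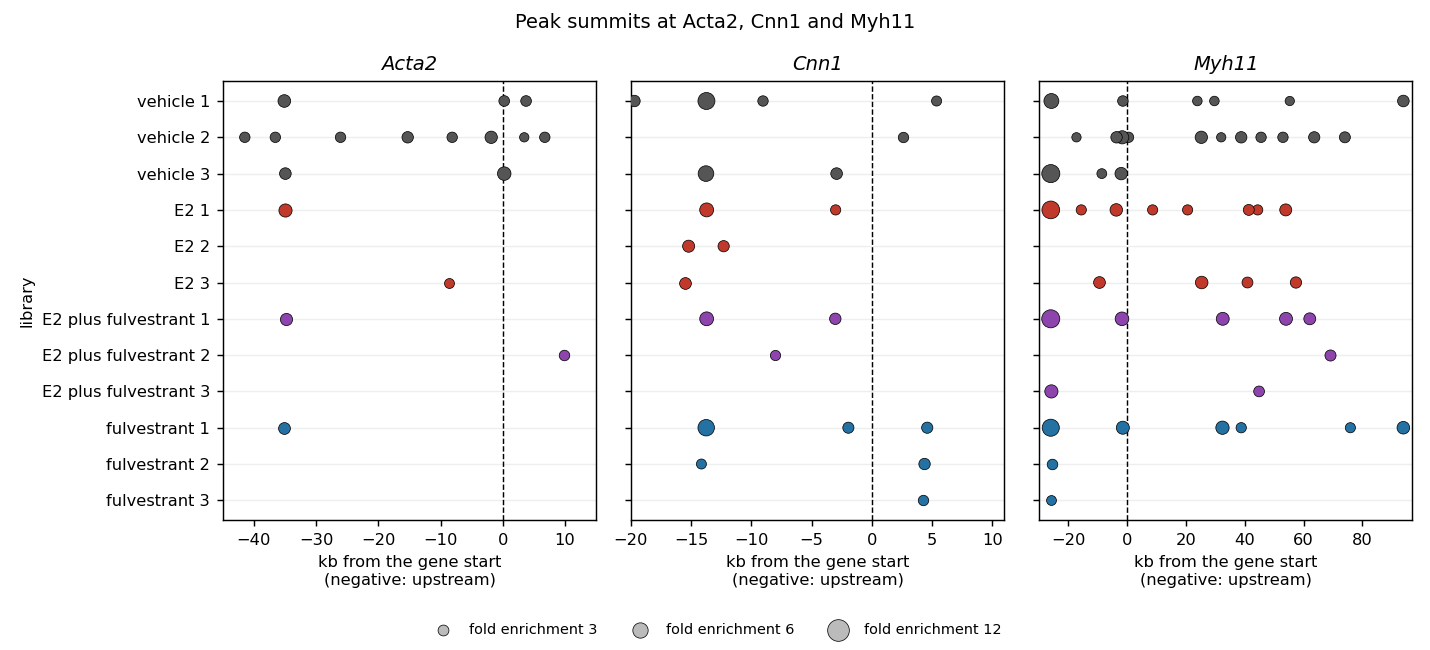
Position of every peak summit near Acta2, Cnn1 and Myh11 in kb from the gene start (horizontal axes, dashed line at the start) for each library (rows, coloured by treatment), with the point area proportional to fold enrichment. Summits near the Acta2 start occur in the vehicle libraries alone, while the aligned points about 35, 14 and 26 kb upstream lie at the starts of Fas, Ecsit and Fopnl.

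Promoter fold enrichment could be compared only for members listed in all 6 libraries of a comparison. For fulvestrant against vehicle these were Cnn1 and Mrtfa, and for the other comparisons there was none. Mrtfa had 7.08, 3.36 and 11.01 with vehicle and 11.1, 6.15 and 3.31 with fulvestrant, which overlap. On the log2 scale fulvestrant minus vehicle was -0.07 for Mrtfa (2.60 ± 0.87 against 2.68 ± 0.87, SD, n = 3, exact permutation p = 0.8) and 0.08 for Cnn1 (1.63 ± 0.14 against 1.55 ± 0.22, exact permutation p = 0.8). Neither was called, beside 2.27% of the 1144 genes that could be compared.

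A wider contractile list held 20 further SRF targets and cytoskeletal genes. Of its promoters, 18 of 20 were listed in 6 or more libraries, against 45.2% of all genes. The median was 7 libraries, against 6 for the members and 5 over all genes. Vcl, which encodes the adhesion protein vinculin, reached a fold enrichment of 16.2, above the 12.5 of Tpm1, while Zyx (zyxin) reached 12.02 and Tpm3, another tropomyosin, 10.6. The lowest of these maxima were 3.42 for Des, listed in 6 libraries, and 3.50 for Lmod1, listed in 3, while the smooth muscle genes Mylk, Smtn and Cald1 reached 6.64, 7.22 and 7.85. In locus peak number, 1 of the 20 was called in 1 comparison, beside 5.63% of all loci. This was Mylk, the myosin light chain kinase, with 16, 25 and 13 peaks with vehicle and 10, 9 and 6 with E2 plus fulvestrant. Of the 6 genes listed as SRF partners, 5 were listed in 6 or more libraries, beside the same 45.2% of all genes. Of these partners 1 was called, Elk4, with 5, 4 and 3 peaks with vehicle and 2, 1 and 0 with fulvestrant, beside 4.59% of all loci. By peak number both lists had 0 genes called between E2 and E2 plus fulvestrant. Per 10000 peaks, 3 of the 20 contractile list genes were called, all lower with E2, and 0 of the 6 partners, beside 8.57% of all loci in either direction.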

How the data were processed

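ATAC-seq peaks of 12 libraries, 3 per treatment, were analysed. According to the study's methods and the labels, the authors trimmed reads with Trimmomatic 0.39, aligned them to mm10 with Bowtie2, removed duplicates with Picard 2.21.4, and called peaks per library with MACS2 with a shift and extension for cut sites. The deposited narrowPeak columns held a fold enrichment (ratio to local background), −log10 p, −log10 q and a display score, which is 10 times −log10 p. The score was used only to check the columns. The aligner and caller versions are left out because the sources differ. Files gave no counts, so depth is unknown, and the authors' count test on consensus peaks was not run.

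Loci and starts came from GENCODE M21, sequences from RefSeq GRCm38.p6 (all 8 member promoter entries matched the genome). Python 3.11.15, NumPy 2.4.6, pandas 2.3.3, SciPy 1.17.1 and pysam 0.24.0 were used, and calls were tested on simulated data. Groups of 3 that did not overlap were called. Exact permutation p-values were adjusted over all loci with a peak. The 10 members, the gene lists and the tests were chosen with earlier results of these data known. Named genes were all members, with list genes at the ends of the range or called. Regions were named if in 6 of 12 libraries (at most 3 a gene), and weaker ones were named after their values were seen. The likeness rule needed a member promoter listed in 12 libraries, of which there was none. Alternatives were peak limits, windows, scale, left-out libraries, replicate numbers and the replicate block.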

Additional observations from a re-analysis of the deposited data

How the results depend on the processing

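Member counts are given in the order E2 against E2 plus fulvestrant, E2 against vehicle, fulvestrant against vehicle and E2 plus fulvestrant against vehicle, where the locus peak number called 0, 1, 1 and 1. With q of 0.05 or less or with fold enrichment of at least 5 it called 0 in all. Between E2 and E2 plus fulvestrant, 0.0802% of all loci were called with this q and 0.0215% with this fold enrichment. Between E2 and vehicle the shares were 0.601% and 0.151%. With 25000 bp upstream it called 0, 0, 1 and 0, with 100000 bp 0, 0, 1 and 1, with the gene body alone 0, 1, 1 and 0, and per 10000 peaks 0, 2, 2 and 2. In the same order of windows, 1.94%, 2.09% and 2.04% of all loci were called between E2 and E2 plus fulvestrant. Between E2 and vehicle they were 3.06%, 3.59% and 2.48%. Per 10000 peaks the shares in the order of comparisons were 8.57%, 7.39%, 8.22% and 8.93%. Replicate numbers 2 and 3 alone called 2, 4, 5 and 2, beside 17.3%, 29.8%, 35.3% and 32.3% of all loci in either direction. Number 1 alone has 1 library a treatment, so no call could be made. Leaving out 1 library gave 0 to 1, 1 to 4, 1 to 4 and 1 to 5, and Acta2 stayed below vehicle in each. For E2 against E2 plus fulvestrant the count was 1 without E2 1, E2 3 or E2 plus fulvestrant 1 (9.01%, 10.6% and 9.06% of all loci). For E2 it was 4 without E2 1 (24.8%), 2 without vehicle 2 (6.51%) and 3 without vehicle 3 (18.0%). For fulvestrant it was 4 without fulvestrant 1 (30.0%), 2 without fulvestrant 3, vehicle 1 or vehicle 2 (6.34%, 7.98% and 7.41%), and 3 without vehicle 3 (22.7%). For E2 plus fulvestrant it was 2 without E2 plus fulvestrant 1, E2 plus fulvestrant 2 or vehicle 2 (26.9%, 8.14% and 8.69%), and 5 without vehicle 3 (26.7%).

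With the replicate block (all 3 differences within a number of 1 sign) the count was 1, 5, 5 and 5, where 11.4%, 15.8%, 17.6% and 19.2% of all loci were called. The deviations of same-numbered libraries from their group means correlated weakly. The range was 0.0403 to 0.249 for number 1, -0.0135 to 0.167 for number 2 and -0.0412 to 0.118 for number 3. Number 1 still stood apart in its chromosome Y peaks, and whether a number marks a shared origin of the libraries was not tested.

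For promoter listings the counts were 0, 3, 1 and 2, and with q of 0.05 or less, with fold enrichment of at least 5 or within 1000 bp they were 0 in all. With q of 0.05 or less, 0.00814%, 0.0943%, 0.124% and 0.137% of all genes with such a promoter peak were called. Leaving out 1 library gave 0, 3 to 6, 1 to 3 and 2 to 4: 6 without E2 1 for E2 (13.2% of all genes, 0.866% with every library), 3 without fulvestrant 1 (10.3%, 0.772% with every library) and 2 without vehicle 2 or vehicle 3 (1.74% and 3.33%) for fulvestrant, and 4 without E2 plus fulvestrant 1 for E2 plus fulvestrant (13.6%, 1.01% with every library). The 6 members listed in 6 or more libraries became 3 with q of 0.05 or less and 2 with fold enrichment of at least 5. Over all genes, the median share of promoters per library was 37.0% listed and 11.5% with q of 0.05 or less. With a library left out, the members listed in 6 or more were 3 to 6. They were 3 without vehicle 1, vehicle 3 or fulvestrant 1 (34.6%, 34.6% and 33.6% of all genes, 45.2% with every library). The 0 calls of promoter fold enrichment held under each alternative (with the 1000 bp window 1 member was left to compare), and the recurrent regions were 6 with reciprocal overlap and 6 with q of 0.05 or less. The cause of these changes was not tested.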

Other observations

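Of the genes not expected in fibroblasts, muscle, endothelium or immune cells, the promoter of Sftpc, a lung surfactant protein, was listed in 7 libraries and with q of 0.05 or less in 5, at a fold enrichment of up to 4.36. Alb was listed in none, and Krt5 and Neurod1 were listed in 1 library each. The promoter of Esr1, which encodes the estrogen receptor, was listed in 7 libraries, 3 with q of 0.05 or less. Ckm, the muscle creatine kinase, was listed in 8 libraries, 3 with q of 0.05 or less, at up to 4.55.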
